A study of Mus musculus with 10 samples.

Results

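The 10 genes described here encode receptors and one motor that cells use to grip and cross a wound bed: the integrin subunits Itga2, Itga3, Itga5, Itga9, Itgav, Itgb1, Itgb5 and Itgb6, the hyaluronan receptor Cd44, and the filopodial myosin Myo10. All 10 of the 10 genes had a feature on the array, out of 30743 genes with a feature of their own, and all 10 passed the filter on low signal that left 17641 genes for testing. They were chosen by name, with earlier results of the same comparison known, Myo10 among them for its small p, so their differences and p-values are a description and are not independent evidence. The brightest feature of a gene was to be taken by its mean over all 10 arrays, but each of the genes had exactly 1 feature, so brightness chose nothing.

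The study compared diabetic wounds supplied locally with the microRNA miR-132 with wounds given a control. Wounds of 5 mice received miR-132 mimics and wounds of 5 other mice received control mimics, 0.5 nmol per wound in 100 µl with the delivery reagent MaxSuppressor In Vivo RNA-LANCEr II, injected into the skin at 4 points of the edge right after wounding. Both groups were male db/db mice, BKS(D)-Leprdb/JOrlRj, on the C57Bl/6J background, 11 weeks old and then housed singly for a week, with 2 full-thickness back wounds from a 4 mm punch made under isoflurane after shaving and hair removal cream, and with buprenorphine for pain. Total RNA of wound-edge biopsies taken 6 days after injury, 150 ng per sample, was measured on Affymetrix mouse Clariom D arrays. The db/db mouse carries a mutated leptin receptor gene in every cell and is a model of obesity with diabetes. There was no non-diabetic or unwounded group here, and the labels do not say whether the wounds of a mouse were pooled. The biopsies hold epidermis, dermis, vessels, muscle, fat and immune cells together, so fewer cells of a type and less RNA per cell cannot be told apart in any value below.

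Integrins are receptors made of an alpha and a beta chain that span the membrane and tie the extracellular matrix to actin. The beta1 chain pairs with alpha2 to bind collagen, with alpha3 to bind laminin-332, with alpha5 to bind fibronectin and with alpha9 to bind tenascin-C and fibronectin, while the alphav chain pairs with beta1, beta5 and beta6 to bind fibronectin and vitronectin and, with beta6, the latent form of TGF-beta. In wounds, keratinocytes loosen their hemidesmosomes and use such receptors to crawl over the provisional matrix, with Cd44 binding hyaluronan and Myo10 carrying integrins to the tips of filopodia.

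The molecule that was supplied, in the annotated mouse form, shares its seed with its genomic neighbour miR-212, which is why both are shown. The seed, bases 2 to 8 of the mature strand and the part that pairs with target messages, is in capitals. The sequences are from RefSeq (GRCm38.p6), and the labels do not say which strand the mimic carried.
mmu-miR-132-3p (chr11:75173723-75173744, plus strand): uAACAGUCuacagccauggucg
mmu-miR-212-3p (chr11:75173443-75173464, plus strand): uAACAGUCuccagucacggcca

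The Mir132 feature, designed on the gene's own transcript, measured 3.38 ± 0.41 in miR-132 wounds and 3.21 ± 0.25 in control wounds (log2 signal, SD, n = 5 each). It lay below the filter on low signal of 4.17, and the array reads the gene's transcript, not the supplied mimic.

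Promoters are shown for the gene whose groups did not overlap (Myo10, which has 2 annotated starts), for the gene with the largest difference (Cd44) and for the shared beta chain (Itgb1). Each is the 250 bases before a RefSeq start in GRCm38.p6, 5′ to 3′ on the gene's strand. Capitals mark the GC box GGGCGG, the letters bound by Sp family factors, and GGAATG, the letters bound by TEAD factors, on either strand.
Myo10, first start (chr15:25622300-25622549, plus strand): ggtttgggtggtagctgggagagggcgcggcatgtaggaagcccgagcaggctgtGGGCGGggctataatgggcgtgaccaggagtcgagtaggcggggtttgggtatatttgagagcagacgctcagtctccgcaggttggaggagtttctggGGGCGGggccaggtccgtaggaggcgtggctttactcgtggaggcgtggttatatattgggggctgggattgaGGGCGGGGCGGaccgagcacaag
Myo10, second start (chr15:25752956-25753205, plus strand): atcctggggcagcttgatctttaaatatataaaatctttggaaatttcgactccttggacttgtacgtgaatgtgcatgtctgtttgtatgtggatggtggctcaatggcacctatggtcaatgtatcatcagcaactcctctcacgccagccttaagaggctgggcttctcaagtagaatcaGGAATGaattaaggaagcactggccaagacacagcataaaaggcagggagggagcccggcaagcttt
Cd44 (chr2:102901666-102901915, minus strand): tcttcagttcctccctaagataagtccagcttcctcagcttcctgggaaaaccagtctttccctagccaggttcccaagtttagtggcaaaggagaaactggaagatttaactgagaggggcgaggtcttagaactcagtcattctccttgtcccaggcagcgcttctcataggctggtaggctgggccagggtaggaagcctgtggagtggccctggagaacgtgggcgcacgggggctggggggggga
Itgb1 (chr8:128685404-128685653, plus strand): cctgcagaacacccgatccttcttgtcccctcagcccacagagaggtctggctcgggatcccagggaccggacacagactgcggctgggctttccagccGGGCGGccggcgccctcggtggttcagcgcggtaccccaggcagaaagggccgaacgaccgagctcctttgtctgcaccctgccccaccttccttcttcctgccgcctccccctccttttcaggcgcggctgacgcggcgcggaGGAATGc

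All 10 genes matched the promoter table, with 13 starts in all. GGGCGG stood in 6 of the 13 windows, against 32.7% of the 32851 mouse promoter windows of the same length. The first Myo10 start held 4 copies, the last pair sharing bases, and the Cd44 window held none. GGAATG stood in 2 of 13 windows, the second Myo10 start and Itgb1, against 12.6% of all windows. The AP-1 letters TGANTCA were in 0 of the 13 windows, against 6.75% of all, and TATAAA was in 1, the second Myo10 start, against 12.4%. These matches describe letters in one short window each, and the array does not tell the 2 Myo10 starts apart.

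Wounds given miR-132 averaged lower than control wounds for 8 of the 10 genes, and none passed limma's adjusted threshold. Cd44 had the largest difference, 2.30-fold lower on average, and Myo10 was the gene with separated groups, 1.49-fold lower. The epithelial and provisional-matrix alpha chains Itga3, Itgav, Itga5 and Itga2 averaged 1.34-fold to 1.52-fold lower, and Itgb6, the epithelial partner of alphav, 1.30-fold lower. The common beta chain Itgb1 differed by 0.09 ± 0.21 (log2, moderated SE) and Itgb5 by -0.11 ± 0.19, each less than its error, and Itga9 averaged higher by 0.13 ± 0.10.

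Each difference is the miR-132 mean less the control mean in log2 signal, fitted with limma over all 17641 genes, and adjusted p-values are Benjamini-Hochberg over all of them. Of all genes tested, 53.6% averaged lower and the median difference was -0.02, beside a median of -0.44 over the 10 genes. In the fit 0% of genes passed an adjusted p of 0.05, and the smallest adjusted p was 0.596. An unadjusted p under 0.05 in the lower direction was reached by 5.61% of genes and in the higher direction by 2.48%, beside 3 of the 10 genes lower (Myo10, Cd44 and Itga3) and 0 higher. All 5 miR-132 arrays lay below all 5 control arrays for 0.646% of genes, beside 1 of the 10, Myo10. Of the genes at an unadjusted p under 0.05, 69.4% were lower on the deposited values, 48.5% after a further quantile normalization and 92.7% with each array centred on its median, while 7 of the 10 genes averaged lower after quantile normalization. Because the genes were chosen with this contrast in view, nothing is read from these counts.

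Replicates 2 and 5 of the miR-132 group had the narrowest signal range: their 10th to 90th percentiles spanned 4.25 and 4.46, against 4.72 to 4.79 on the other miR-132 arrays and 4.64 to 4.89 on the control arrays. Without both, Cd44 differed by -1.14 ± 0.37, Myo10 by -0.61 ± 0.15, Itga5 by -0.92 ± 0.22 and Itgb6 by -0.26 ± 0.25 (log2, moderated SE), and Itgb1 by 0.03 ± 0.23. Of the genes at an unadjusted p under 0.05 over the whole array, 39.5% were then lower.

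**Figure D1:**
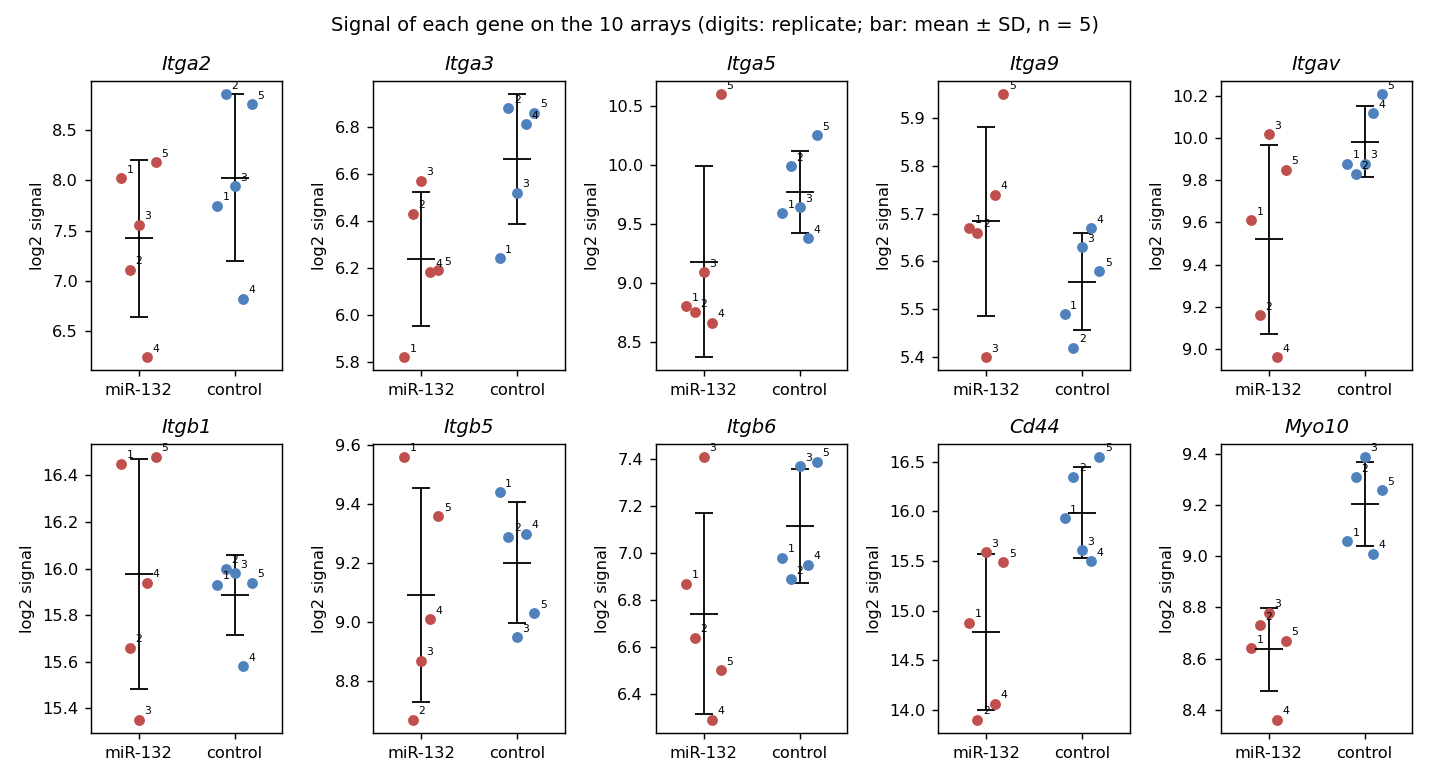
Log2 signal (vertical axes, scaled per gene and not starting at 0) of the 10 genes on each of the 5 miR-132 arrays (red, left) and 5 control arrays (blue, right), with digits for the replicate and bars for mean ± SD. For Myo10 the highest miR-132 array, 8.78, lies below the lowest control array, 9.01, while for Itgb1 the miR-132 arrays spread on both sides of the controls.

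Among the collagen and laminin receptors, Itga2 varied widely in both groups. Itga2, the collagen-binding alpha2 chain that keratinocytes raise at wound edges, measured 8.02, 7.11, 7.56, 6.24 and 8.18 on miR-132 replicates 1 to 5, against 7.75, 8.86, 7.94, 6.82 and 8.76 on control replicates 1 to 5 (log2 signal). The groups overlapped over most of their range, and the lowest array of each group was its replicate 4. Its difference was -0.60 ± 0.47 (moderated SE, adjusted p from limma of 0.752), and it was -0.31 without miR-132 replicate 4 and -0.91 without control replicate 4. Itga3, the alpha3 chain that binds laminin-332, measured 5.82, 6.43, 6.57, 6.18 and 6.19 in miR-132 wounds, against 6.24, 6.88, 6.52, 6.81 and 6.86 in control wounds. All 5 miR-132 arrays lay below the control mean, and 3 of them lay below every control array, while replicates 2 and 3 lay inside the control range. The difference was -0.42 ± 0.17 (unadjusted p of 0.0297 and adjusted p of 0.596, limma). Its unadjusted p in limma was above 0.05 after quantile normalization (0.0782), when any of miR-132 replicates 1, 4 and 5 or control replicates 2, 4 and 5 was left out (0.0552 to 0.0689), and without both miR-132 replicates 2 and 5 (0.0541).

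Of the receptors for fibronectin and tenascin-C, Itga5 was low on 4 miR-132 arrays and high on 1. Itga5, the alpha5 chain of the classical fibronectin receptor, measured 8.8, 8.75, 9.09, 8.66 and 10.6 in miR-132 wounds, against 9.59, 9.99, 9.64, 9.38 and 10.25 in control wounds. Replicates 1 to 4 of the miR-132 group lay below every control array, and replicate 5 lay above every control array. The difference of -0.59 ± 0.37 (adjusted p of 0.691, limma) moved by more than 1.5 times with that array: without miR-132 replicate 5 it was -0.94 ± 0.20 (unadjusted p of 0.00113, adjusted p of 0.833). Adjusted for the hybridisation controls, the Itga5 difference was -1.15 ± 0.47. Those controls tended higher on miR-132 arrays, so that covariate cannot be fully told apart from treatment. Replicate 5 of the miR-132 group had the highest signal of its group for Itga9, Itgb1 and Itga2 as well. Itga9, the alpha9 chain found on basal keratinocytes and on lymphatic endothelium, was one of the genes that averaged higher. It measured 5.67, 5.66, 5.4, 5.74 and 5.95 in miR-132 wounds, against 5.49, 5.42, 5.63, 5.67 and 5.58 in control wounds. Replicate 3 of the miR-132 group lay below all controls and replicates 4 and 5 above all of them, and the 95% interval of the difference ran from -0.09 to 0.34 (adjusted p of 0.749, limma). The Itga9 difference of 0.13 was 0.06 without miR-132 replicate 5, 0.20 without miR-132 replicate 3 and 0.04 with each array centred on its median.

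The alphav chain and its epithelial partner Itgb6 averaged lower by more than Itgb5 did, a contrast between genes that was not tested. Itgav measured 9.61, 9.16, 10.02, 8.96 and 9.85 in miR-132 wounds, against 9.88, 9.83, 9.88, 10.12 and 10.21 in control wounds. The controls lay close together, and 3 of the miR-132 arrays lay below all of them, with replicates 3 and 5 inside the control range. Its difference was -0.46 ± 0.21 (unadjusted p of 0.0561, adjusted p of 0.623, limma). Itgb6, which is nearly restricted to epithelium and is induced in migrating keratinocytes, measured 6.87, 6.64, 7.41, 6.29 and 6.5 in miR-132 wounds, against 6.98, 6.89, 7.37, 6.95 and 7.39 in control wounds. All miR-132 arrays except replicate 3 lay below every control array, and replicate 3 lay above every one. The Itgb6 difference was -0.37 ± 0.21 (adjusted p of 0.659, limma), and -0.54 ± 0.16 without miR-132 replicate 3 (adjusted p of 0.17). Itgb5, the beta chain of a vitronectin receptor that many stromal cells carry, measured 9.56, 8.67, 8.87, 9.01 and 9.36 in miR-132 wounds, against 9.44, 9.29, 8.95, 9.3 and 9.03 in control wounds. Its groups overlapped throughout, the 95% interval of the difference ran from -0.53 to 0.31, and after a further quantile normalization the difference was 0.05. Single arrays moved the Itgb5 difference of -0.11 to -0.22 (miR-132 replicate 1 left out) and to -0.002 (miR-132 replicate 2 left out), and others placed it between.

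Itgb1 encodes the beta chain that the alpha2, alpha3, alpha5 and alpha9 chains need to reach the surface. It measured 16.45, 15.66, 15.35, 15.94 and 16.48 in miR-132 wounds, against 15.93, 16, 15.98, 15.58 and 15.94 in control wounds. The spread was wider with miR-132 (SD of 0.49) than in controls (SD of 0.17), and the miR-132 arrays included both the highest and the lowest values of all 10. The 95% interval of the difference ran from -0.39 to 0.57 (adjusted p of 0.934, limma), and the difference was -0.03 without miR-132 replicate 1 and -0.04 without miR-132 replicate 5. It was 0.25 without miR-132 replicate 3, 0.17 without miR-132 replicate 2 and 0.01 without control replicate 4.

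Cd44, the main receptor for hyaluronan and a surface protein of activated keratinocytes, fibroblasts and leukocytes, measured 14.88, 13.9, 15.59, 14.06 and 15.49 in miR-132 wounds, against 15.93, 16.35, 15.61, 15.5 and 16.55 in control wounds. Replicates 1, 2, 4 and 5 lay below every control array and replicate 3 lay between the lowest controls, so the groups overlapped by 1 array. The means were 14.78 ± 0.78 in miR-132 wounds and 15.99 ± 0.46 in control wounds (SD, n = 5 each). Its difference was -1.20 ± 0.37 (unadjusted p of 0.00884, adjusted p of 0.596, limma), with a 95% interval from -2.03 to -0.38. Leaving out arrays one at a time kept it at or below -0.98, the value without miR-132 replicate 2, and the lowest was -1.41, with miR-132 replicate 3 left out. With the hybridisation spike-in controls as a covariate it was -1.85 ± 0.45, over 1.5 times as large. Those controls stood at 10.57 to 10.98 on miR-132 arrays and 10.43 to 10.61 on control arrays. That covariate therefore cannot be fully told apart from treatment.

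Myo10, an unconventional myosin that walks on actin bundles and binds the tails of beta integrins, had the smallest spread relative to its difference. Its signal was 8.64, 8.73, 8.78, 8.36 and 8.67 in miR-132 wounds, against 9.06, 9.31, 9.39, 9.01 and 9.26 in control wounds. Every miR-132 array lay below every control array, by 0.23 at the closest. The difference of -0.57 ± 0.12 ranked 18 by p among all genes tested (unadjusted p of 0.00108, adjusted p of 0.596, limma). Leaving out single arrays gave -0.62 to -0.50, and quantile normalization gave -0.42 (unadjusted p of 0.0278).

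**Figure D2:**
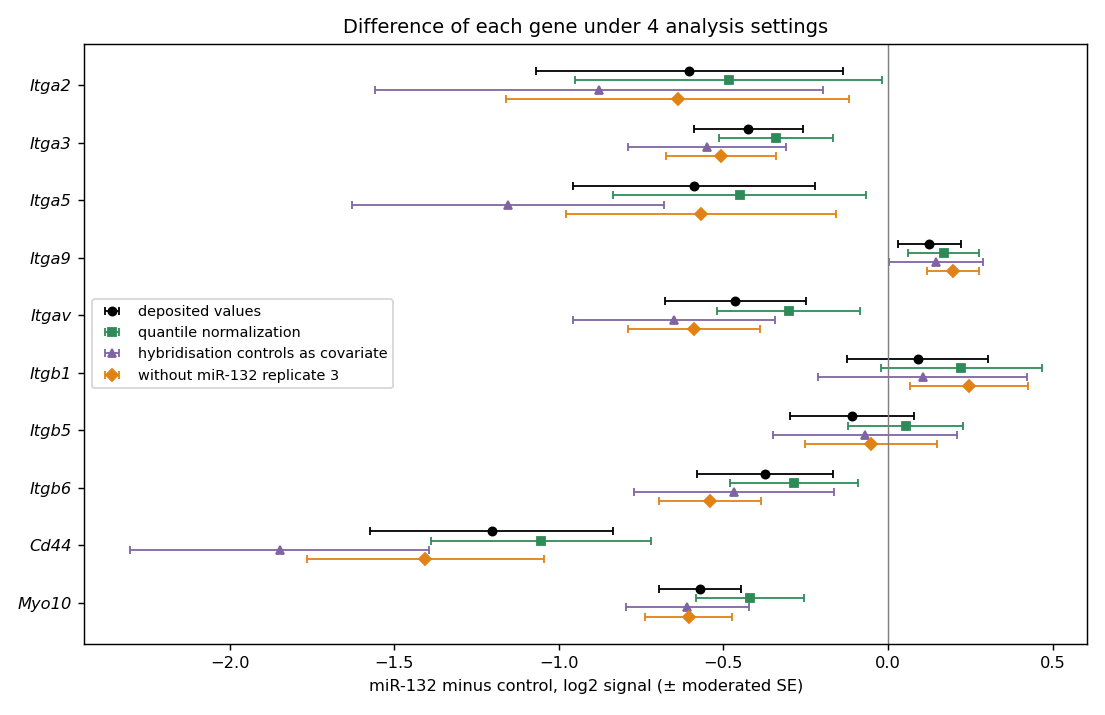
Difference of each gene, miR-132 minus control (horizontal axis, log2 signal), with the moderated SE as bars, on the deposited values (n = 5 per group), after quantile normalization, with a covariate for the hybridisation controls, and without miR-132 replicate 3. Cd44, at -1.20 on the deposited values, stays below -1 in each of these settings, and Itgb5 crosses 0 after quantile normalization.

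A single array, miR-132 replicate 3, held the highest miR-132 signal for Itga3, Itgav, Itgb6, Cd44 and Myo10 and the lowest for Itga9 and Itgb1. Without it, 5 of the 10 genes had an unadjusted p under 0.05 in the lower direction (Itgav and Itgb6 joined). Over all 17641 genes that count was 1840, against 990 with every array in. Itga9 had an unadjusted p under 0.05 in the higher direction (0.20 ± 0.08, unadjusted p of 0.036, limma). Over all genes 52 passed adjustment without that array, none of them among the 10. Of the 10 genes, the smallest adjusted p without it was 0.1 for Myo10 and 0.139 for Cd44 (limma).

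Markers of several cell types varied across these arrays as well. The marker lists were also chosen with earlier results of these data known, so nothing is read from their counts. The mean log2 signal of 8 wound-activated keratinocyte markers spanned 15.3 to 16.74 in miR-132 wounds and 16.21 to 16.8 in control wounds, with 7 of 8 averaging lower. It was highest of the miR-132 group on replicate 3. The median difference of these 8 markers was -0.85, and 5 had an unadjusted p under 0.05 (limma), all lower. Over all genes tested, 53.6% averaged lower and 5.61% reached such a p in that direction. Medians of the other marker lists ran from -0.38 for skeletal muscle to 0.32 for adipocytes. The 10 basal keratinocyte markers spanned 10.97 to 11.68 in miR-132 wounds and 11.24 to 12.11 in control wounds, with 10 of 10 lower, and the 9 neutrophil markers spanned 11.34 to 12.19 and 10.84 to 13.31 in the same order, with 9 of 9 lower. Keratins Krt14 and Krt5, which define basal keratinocytes, stood at the signal limit of 19.93 on every control array, as did S100a8 and S100a9. Those features cannot show higher levels. Krt16 stood at the limit on all 10 arrays and can show no difference in either direction. S100a8 and S100a9 belong to both the wound-activated keratinocyte and the neutrophil list, so the counts of those lists are not independent. The 9 fibroblast markers, led by Dcn and Dpt, spanned 9.99 to 11.19 in miR-132 wounds and 10.5 to 10.97 in control wounds, and the 9 endothelial markers, led by Cdh5 and Pecam1, 6.05 to 6.97 and 6.4 to 6.92. Macrophage markers, led by Mrc1 and C1qb, spanned 10.39 to 11.46 in miR-132 wounds and 9.95 to 11.26 in control wounds. Smooth muscle and myofibroblast markers spanned 7.47 to 8.29 and 7.78 to 8.26, skeletal muscle markers 10.06 to 13.5 and 10.03 to 13, and adipocyte markers 7.65 to 10.8 and 7.79 to 10, each with miR-132 wounds before control wounds. Of the adipocyte markers 8 of 8 averaged higher, with a median difference of 0.32, but with miR-132 replicate 1 left out, 5 of the 8 averaged lower. Of the skeletal muscle markers 7 of 8 averaged lower, of the fibroblast markers 6 of 9, of the endothelial markers 7 of 9, of the macrophage markers 4 of 9 and of the smooth muscle markers 3 of 6. The listed markers Krt6a and Krt6b of wound-activated keratinocytes and Pdgfra of fibroblasts had no feature of their own and were not measured. No other listed marker lay below the filter on low signal. The part of these markers in the differences of the 10 genes was not tested.

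**Figure D3:**
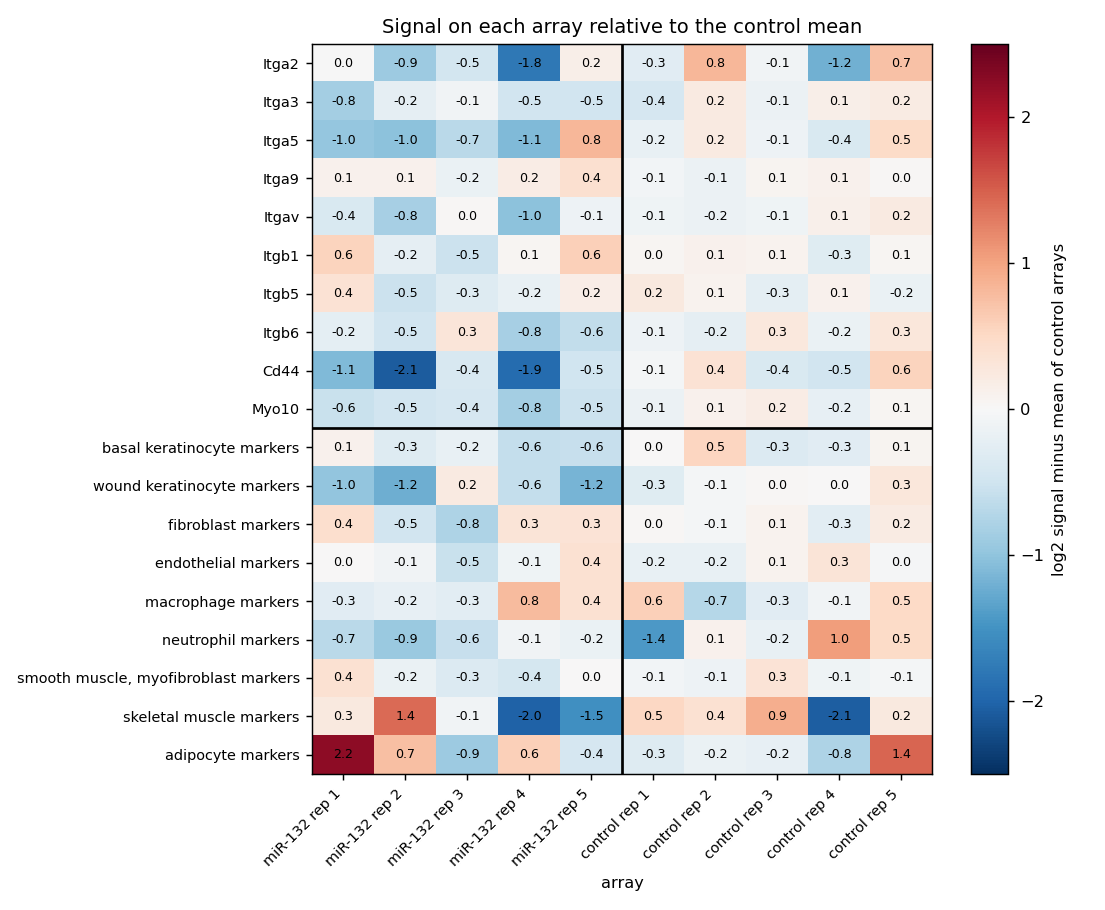
Log2 signal of the 10 genes (upper block) and mean log2 signal of each marker list (lower block) on every array, as the difference from the mean of the 5 control arrays, with miR-132 arrays left of control arrays. The Cd44 row is below 0 on all 5 miR-132 arrays, and skeletal muscle and adipocyte markers vary by more than any of the 10 genes within both groups.

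How the genes varied together from mouse to mouse was read from deviations from the group means. These take out the mean difference between the groups. Any uneven response to treatment among the miR-132 wounds stays in them and was not tested. Over the 45 pairs of the 10 genes, Cd44 ran with Itgav (Pearson's r of 0.81, Spearman's rho of 0.79, exact permutation p of 0.0304 and 0.0401 within groups), with Itga2 (0.77 and 0.78, exact p of 0.0138 and 0.01) and with Itga5 (0.70 and 0.87, exact p of 0.0143 and 0.00528), over 10 arrays. Without the 2 arrays farthest from the median for Itgav, Itga2 or Itga5, these r values were 0.70, 0.70 and 0.70, in the same order. Arrays extreme only for Cd44 stayed in. No pair passed adjustment over the 45 (the smallest adjusted exact permutation p was 0.322 for r and 0.0625 for rho, the second for Itga2 with Itga5).

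Against the mean of each of the 9 marker lists, 90 relations in all, Itgb1 followed the fibroblast markers (r of 0.90, rho of 0.78, exact permutation p of 0.00424 and 0.0709, r of 0.76 without the 2 farthest arrays). The 2 farthest arrays here are those farthest in the marker mean, so arrays extreme only for the gene stayed in. Itga9 followed the endothelial markers (r of 0.95, rho of 0.89, exact permutation p of 0.00229 and 0.00569, r of 0.83 without the 2 farthest). Both had an adjusted exact permutation p of 0.191 for r, and none of the 90 passed. Itga9 ran opposite to the basal keratinocyte markers (r of -0.64, rho of -0.73, exact permutation p of 0.051 and 0.0298, r of -0.76 without the 2 farthest). Myo10 ran with the skeletal muscle markers (r of 0.70, rho of 0.56, exact permutation p of 0.0274 and 0.118), but r was 0.18 without the 2 farthest. All arrays share one normalization and one kind of mixed tissue.

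The genes whose deviations were most like those of 4 of the 10 were taken from 17631 others, as a description over 10 arrays. For Itgb1 they were Rnf121 (r of 0.98, rho of 0.92), Col6a2 (0.97, 0.83), Col6a3 (0.96, 0.93), Col6a1 (0.95, 0.79) and Dennd5b (0.95, 0.93), the Col6 genes encoding the chains of collagen VI, of which 2 also stand among the fibroblast markers. For Cd44 they were Atxn1 (r of 0.97, rho of 0.98), Gzf1 (0.95, 0.95), Abhd2 (0.94, 0.92), Inafm1 (0.93, 0.91) and Yod1 (0.93, 0.94). Itga3 was nearest to Bfsp1 (r of 0.95), Zc3h3 (0.94), Zfyve27 (0.92), Mafg (0.91) and Ceacam1 (0.91), and Myo10 to Gpa33 (0.94), Paqr4 (0.91), Mir98 (0.91), Mir7020 (0.91) and Gm14785 (0.91). The rho values of the last group lay between 0.59 and 0.92.

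The related lists from here on, like the marker lists above, were chosen with earlier results of these data known. Of the 14 other integrin subunits tested, 8 averaged lower and 6 higher, beside 53.6% lower over all genes tested. Of these subunits, 0 had an unadjusted p under 0.05, and their median difference was -0.02. The smallest p belonged to the leukocyte chains Itgb2 and Itgam and to Itgb4 and Itga8. Itgb2, the beta chain of leukocyte integrins, measured 8.77, 8.77, 9.25, 9.32 and 9.61 in miR-132 wounds, against 9.96, 9.55, 9.14, 9.86 and 9.35 in control wounds, with a difference of -0.43 ± 0.22 (adjusted p of 0.653, limma). Its partner Itgam differed by -0.59 ± 0.49 (8.78 to 10.76 in miR-132 wounds, and 9.74 to 10.37 in control wounds apart from replicate 4 at 11.95), and the neutrophil markers averaged lower as well, their part not tested. The hemidesmosome chain Itgb4 differed by -0.34 ± 0.24 and Itga8, an alpha chain of smooth muscle and mesenchyme, by 0.09 ± 0.08. Itga10, Itga2b and Itgae lay below the filter on low signal, and Itga1 had no feature of its own.

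Adhesion adaptors couple integrins to actin. Of 22 tested, 15 averaged lower and 7 higher, with a median of -0.13, and 3 had an unadjusted p under 0.05, all lower. Over all genes tested, 53.6% averaged lower and 5.61% were lower at such a p. Actn4, an alpha-actinin that crosslinks actin, measured 10.98, 10.76, 11.34, 10.91 and 10.76 in miR-132 wounds, against 11.6, 11.39, 11.2, 11.58 and 11.86 in control wounds, overlapping through miR-132 replicate 3. Its difference was -0.58 ± 0.17, that of Vcl, which encodes vinculin, -0.41 ± 0.16, that of the scaffold Pxn, paxillin, -0.23 ± 0.10 and that of Tns4, an epithelial tensin, -0.76 ± 0.34 (adjusted p of 0.596 to 0.62, limma). All 5 miR-132 arrays lay below the control mean for Actn4, Vcl and Pxn.

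The matrix proteins that these receptors bind differed by -0.41 to 0.32. Of 17 ligands tested, 13 averaged lower and 4 higher, with a median of -0.15, beside 53.6% lower over all genes tested. Ccn2, a matricellular protein, was the one with an unadjusted p under 0.05 and averaged higher, by 0.32 ± 0.12. It measured 6.29, 6.02, 5.89, 6.37 and 6.54 in miR-132 wounds, against 5.88, 5.98, 5.76, 5.83 and 6.07 in control wounds, with overlap through miR-132 replicates 2 and 3. Tgfb1 differed by -0.23 ± 0.14, the laminin-332 chain Lamb3 by -0.41 ± 0.34 and the collagen I chain Col1a2 by -0.25 ± 0.24 (adjusted p of 0.691 to 0.795, limma).

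Around Cd44 stand the genes of hyaluronan turnover and the proteins that bind or splice Cd44. Of 17 tested, 11 averaged lower and 6 higher, with a median of -0.12, beside 53.6% lower over all genes tested. Ezr, which encodes ezrin, a link between Cd44 and cortical actin in epithelium, measured 9.72, 9.34, 10.89, 9.34 and 9.89 in miR-132 wounds, against 10.87, 11.57, 10.62, 10.55 and 11.09 in control wounds. Again replicate 3 was the one miR-132 array inside the control range. The Ezr difference was -1.10 ± 0.32 (unadjusted p of 0.00644, adjusted p of 0.596, limma). Esrp2, an epithelial splicing factor for the variant exons of Cd44, differed by -0.80 ± 0.33, the hyaluronidases Cemip2 and Hyal2 by -0.32 ± 0.17 and -0.20 ± 0.11. The array summarises whole transcript clusters, so Cd44 isoforms were not separated here.

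Filopodia genes, the setting in which Myo10 acts, averaged lower for 11 of 13, with a median of -0.12 and 3 at an unadjusted p under 0.05. Over all genes tested, 53.6% averaged lower and 5.61% were lower at such a p. The list was chosen with earlier results of these data known, so nothing is read from its counts. Diaph1, a formin that lengthens actin filaments, measured 9.7, 9.4, 10.13, 9.67 and 9.75 in miR-132 wounds, against 10.01, 10.5, 10.15, 10.21 and 10.13 in control wounds, a difference of -0.47 ± 0.16. The filopodial GTPase Rhof differed by -0.27 ± 0.09, the actin elongation factor Vasp by -0.21 ± 0.08 and the membrane-bending Baiap2 by -0.23 ± 0.10 (adjusted p of 0.596 to 0.62, limma). Fscn1, the bundling protein of filopodia, averaged higher by 0.16 ± 0.22.

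**Figure D4:**
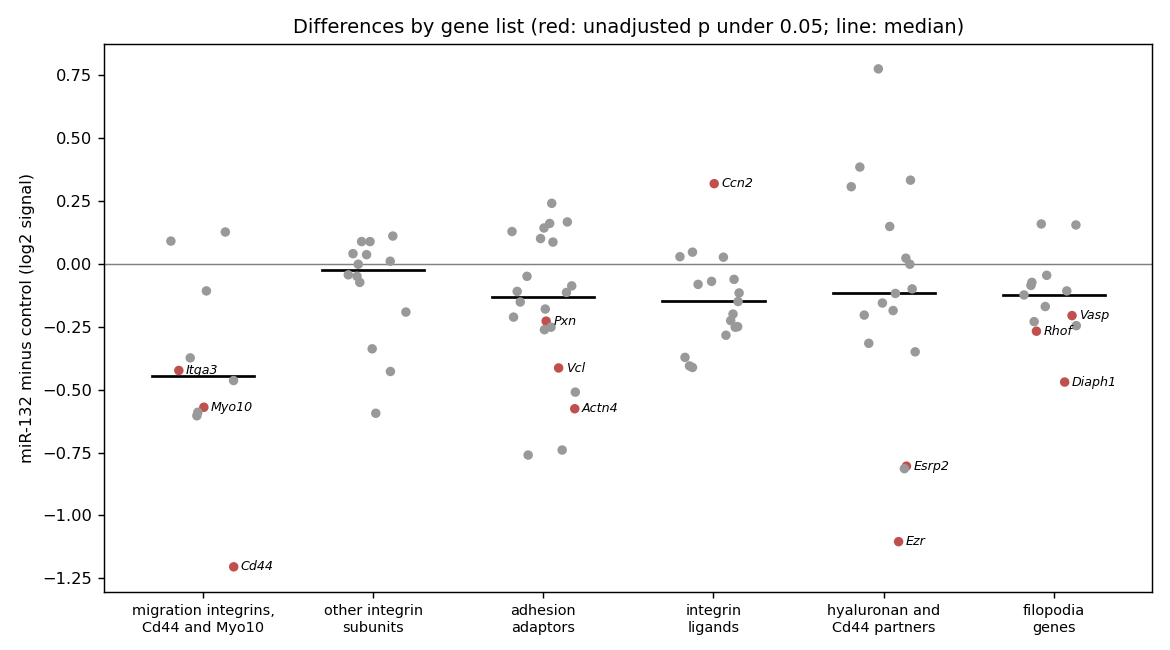
Difference of each tested gene, miR-132 minus control (vertical axis, log2 signal), in the 10 genes and 5 related lists, with a line at each list's median and red points for an unadjusted p under 0.05. The 10 genes have a median of -0.44, beside -0.15 to -0.02 for the related lists, but they were chosen with this comparison known. The marker lists, not drawn here, have medians from -0.85 (wound-activated keratinocytes) to 0.32 (adipocytes).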

How the data were processed

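The authors' values are RMA summaries per transcript cluster, background-corrected and normalized between arrays in Expression Console 1.4 (Affymetrix), per the submitters' processing notes. The deposited values are taken as log2 signal, since they span 1.77 to a shared limit of 19.93. Genome build and scan batches are not given in the sources used here. Symbols came from the platform annotation, with names updated through RefSeq (GRCm38.p6, used for names). Of 72688 features, 31216 named 1 gene, 1534 several and 39938 are unnamed here. All 10 columns matched a sample and 0 pairs of arrays were identical.

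Genes with a mean above 4.17, the median over all features, were fitted with limma 3.58.1 in R 4.3.3 (lmFit, eBayes with an intensity trend, no covariates, two-sided, Benjamini-Hochberg). The procedure was tested on simulated data. Correlations used exact permutation within groups (14400 permutations, two-sided). The number of arrays limits precision, and the labels give 5 mice per group. The 10 genes and all lists were chosen with earlier results of these data known. Named genes were the 10, the 4 with the smallest p of each related list, 2 leading markers of a marker list, and the 5 nearest of 4 genes. Fscn1 was named after its values were seen. Alternatives were no level filter, quantile normalization, median centring, no trend, a replicate block, hybridisation controls as a covariate, leaving out each array in turn, and leaving out miR-132 replicates 2 and 5. Averaging all features of a gene changed nothing, since each of the 10 genes has 1.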

Additional observations from a re-analysis of the deposited data

Results flagged for a closer look

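A sample far from the rest of its group was found in 6 of 78 groups of 5 arrays, where chance gives about 1 in 20. For Itga5, miR-132 replicate 5 stood at 10.6 and the other miR-132 arrays at 8.66 to 9.09. For Itgb1, control replicate 4 stood at 15.58 and the other controls at 15.93 to 16. Itgam was 11.95 on control replicate 4, against 9.74 to 10.37 on the other controls. The skeletal muscle marker mean of control replicate 4 was 10.03, with the other controls at 12.33 to 13. The smooth muscle and myofibroblast marker mean was 8.255 on control replicate 3, with the other controls at 7.78 to 7.855. The adipocyte marker mean was 10.0025 on control replicate 5, with the other controls at 7.79 to 8.39.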

How the results depend on the processing

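No gene of the 10 passed limma's adjusted threshold under any alternative run, and Myo10, Cd44, Itga2, Itga3, Itga5, Itgav, Itgb6 and Itga9 kept their direction under all of them. The sign of Itgb5 turned to 0.0535 after quantile normalization, and that of Itgb1 turned without miR-132 replicate 1 (-0.0285) or 5 (-0.036), its values with single arrays left out reaching 0.25. When single arrays were left out, the count of the 10 genes at an unadjusted p under 0.05 and lower ran from 2 to 5. Over all genes that count ran from 618 without control replicate 5 to 1840 without miR-132 replicate 3. The count of the 10 genes averaging lower ran from 8 to 9 with single arrays left out, and was 7 after quantile normalization. The count of all genes past adjustment ran from 0 to 52, the last without miR-132 replicate 3, and the cause was not tested. Over all genes, 1427 had an unadjusted p under 0.05 on the deposited values, 2635 without the filter, 2482 without miR-132 replicate 3 and 949 without control replicate 5. The lower share of these was 69.4% on the deposited values, 48.5% after quantile normalization, 92.7% with each array centred on its median, 37.5% without the filter, 54.3% without miR-132 replicate 2 and 39.5% without miR-132 replicates 2 and 5. With the replicate number as a block, 0 genes passed adjustment and 3 of the 10 had an unadjusted p under 0.05. Same-numbered arrays correlated at -0.03 to 0.16 in their deviations. Replicates 1 and 2 of the miR-132 group were most like the control of their own number, and replicates 3, 4 and 5 were not. With the block the moderated SE of Itga2 was 0.28, against 0.47 without it, and that of Itga9 was 0.095, against 0.0962. Low correlations over all genes cannot decide whether the numbers pair samples or mark a shared batch. The hybridisation controls stood at 10.57 to 10.98 with miR-132 and 10.43 to 10.61 in controls, so that covariate cannot be fully told apart from treatment.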
